A study of Mus musculus with 12 samples.

Results

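Excision and mismatch repair genes were followed in bone marrow LSK cells (lineage-negative, Sca1-positive, Kit-positive cells, the fraction that holds hematopoietic stem and early progenitor cells) of 3 wild-type (WT) mice and 3 mice at a preleukemic stage of Cbfb-MYH11 (CM), the fusion gene made by inversion of chromosome 16 in human acute myeloid leukemia. The 35 genes were taken from a list of names: 14 of nucleotide excision repair, 16 of base excision repair and 5 of mismatch repair. All 35 were among the 25078 genes of the table, and all 35 were among the 14599 that passed the filter on low counts. Sorted cells of each mouse gave 2 RNA sequencing libraries, so each of the 4 groups holds 3 libraries. The irradiated library (IR) was harvested 24 h after 3.5 Gy given to the sorted cells, and the unirradiated library (NIR) came from cells that were incubated alongside. WT NIR and WT IR come from the same 3 wild-type animals, and CM NIR and CM IR from the same 3 CM animals. The titles call the WT libraries control, and their names mark animals 1 and 3 with C and animal 2 with WT. The names of the CM libraries hold CHW. Whether C and WT stand for different genotypes was not settled here. The labels used here give no strain, age, sex, Cre driver or induction scheme, so the design shows cells exposed outside the animal at 1 dose and 1 time.

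The 3 pathways act on different damage. Nucleotide excision repair removes bulky, helix-distorting lesions: XPC with RAD23B and CETN2, helped by the DDB1-DDB2 complex, finds them across the genome, ERCC6, ERCC8 and UVSSA act where RNA polymerase stalls, the TFIIH helicases ERCC2 and ERCC3 open the helix, XPA checks the lesion, and ERCC1-ERCC4 and ERCC5 cut the damaged strand on either side. Base excision repair handles oxidized, deaminated and alkylated bases and is a main route for the base damage and single-strand breaks that ionizing radiation leaves. Glycosylases release the base, APEX1 cuts the abasic site, and POLB, LIG3 with XRCC1, and APTX fill, seal and clean the ends. Mismatch repair corrects copying errors: MSH6 and MSH3 are partners of recognition complexes, and PMS2, PMS1 and MLH3 are MutL-family subunits that act after recognition. In mouse cells p53 is known to induce several DNA repair genes after damage, whereas the induction of Ddb2 by p53 known from human cells is weak or absent in mouse.

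The results turn on Ercc5 and Neil3, so the DNA before their start sites is shown. Both come from RefSeq promoter entries on build GRCm38.p6, written in the direction of transcription. The Ercc5 stretch is chr1:44147494-44147743 on the plus strand and holds the 250 bases before the start. The Neil3 stretch is chr8:53639043-53639315 on the minus strand. It was extended past the start to hold a match to the p53 half-site consensus, shown in capitals. A half-site is only part of a full p53 site.
Ercc5: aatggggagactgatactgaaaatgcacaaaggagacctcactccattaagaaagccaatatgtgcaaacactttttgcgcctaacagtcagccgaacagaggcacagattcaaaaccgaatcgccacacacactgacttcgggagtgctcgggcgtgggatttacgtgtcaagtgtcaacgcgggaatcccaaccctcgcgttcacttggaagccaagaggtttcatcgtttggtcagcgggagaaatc
Neil3: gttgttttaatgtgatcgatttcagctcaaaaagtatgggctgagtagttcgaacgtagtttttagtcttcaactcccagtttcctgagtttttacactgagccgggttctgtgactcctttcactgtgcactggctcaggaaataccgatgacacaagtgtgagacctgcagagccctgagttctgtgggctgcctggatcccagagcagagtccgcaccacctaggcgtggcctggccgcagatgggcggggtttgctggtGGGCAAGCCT
The match in Neil3 lies 14 to 23 bases after the start. Matches to this consensus, which is palindromic, were found in 2745 of 32851 promoters of the same length (8.36%). Of the 35 genes, 30 had an entry (33 promoters), and 3 genes held a match: Cetn2, Neil1 and Neil3. This is close to the share of all promoters. The core E2F motif was searched on both strands as TTTCCCGC, TTTCGCGC, TTTGCCGC and TTTGGCGC. It was found in 744 promoters (2.26%) and in 3 of the 30 genes: Msh3, Msh6 and Nthl1. The Ercc5 window held neither motif in these spellings, which describes these letters in this window only.

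Libraries held 68.5 to 110.8 M gene counts. Values per library are given as CPM, counts scaled to the size of the library (with TMM normalization), and changes as log2 fold changes with their standard errors from edgeR's quasi-likelihood test, called at a Benjamini-Hochberg adjusted p of 0.05 over all genes tested. Kit was at 148 to 284 CPM, Cd34 at 230 to 744 CPM and Ly6a, which encodes Sca1, at 42 to 457 CPM across the 12 libraries. By their mean over the 12 libraries, 6 of 7 B cell markers were under 1 CPM, as were 7 of 8 T and NK cell markers. The exceptions were Cd79b at 12.8 to 18.8 CPM and Nkg7 at 7.29 to 39.6 CPM. In some libraries Cd4, Cd8a and Gzma also passed 1 CPM, up to 1.69 CPM for Cd4 in WT IR 2. Of 13 erythroid markers the 4 globin genes (Hba-a1, Hba-a2, Hbb-bt and Hbb-bs) were listed at 0 in all libraries, while Tfrc was at 373 to 780 CPM, Car2 at 62.5 to 171 CPM and Car1 at 0.584 to 55.7 CPM. The 9 erythroid markers tested had negative log2 fold changes after irradiation in both genotypes, with medians of -1.80 in WT and -0.92 in CM. None of the 9 passed edgeR's test, and with the animal as replicate block 1 was called lower in WT and in the averaged contrast, Car1. The summed level of 11 mast cell and basophil markers was 1620 and 1850 CPM in the NIR and IR libraries of CM animal 1 and 2140 and 1170 CPM in those of CM animal 3, against 196 to 638 CPM in the other 8 libraries. The 7 macrophage markers summed to 882 to 1550 CPM in these 4 libraries and to 275 to 1030 CPM in the others. The 11 neutrophil markers summed to 3220 to 5430 CPM over the 12 libraries. In CM against WT in NIR, 1 of these 11 was called higher and 3 lower, beside 137 and 100 of all genes tested. The part of these other cells, erythroid cells included, in the values below was not tested. In bulk RNA, fewer cells of a type and less RNA per cell cannot be told apart. The NIR and IR libraries of CM animal 3 were also less alike than those of other animals (correlation of deviations from the group means 0.13, against 0.41 to 0.84). Its NIR library was compared with the CM IR libraries only. Among these it was closest, at 0.69, to the library labelled IR of CM animal 1. Whether these libraries carry the right labels could not be settled here, so every value of CM animal 3 takes its libraries as labelled. The main results are also given without that animal.

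The level of the 35 genes per transcript length spanned more than 3 orders of magnitude. By the deposited RPKM, Ddb1, the adaptor of a CUL4 ubiquitin ligase, was highest, with 205 ± 10.7 (SD, n = 3) in WT NIR, 214 ± 9.15 in WT IR, 203 ± 14.9 in CM NIR and 206 ± 11.6 in CM IR. Apex1, the abasic-site endonuclease, and Rad23b, the partner of XPC, followed at group means of 102 to 120 and 92.9 to 104 RPKM, and their libraries overlapped. Msh6 stood next at group means of 49.8 to 58.2 RPKM. At the other end were 3 glycosylase genes: Neil1 at 2.68 to 2.88 RPKM, Neil2 at 0.139 to 0.153 RPKM and Tdg at 0.0765 to 0.115 RPKM. Neil2 and Tdg rest on 15 to 29 and 15 to 48 counts per library. Tdg is further uncertain because a processed pseudogene, Tdg-ps, matches its transcript at 98.8% identity over 2845 bases and Gm9855, annotated on the same strand within its span, at 99.2% over 1194 bases. Gm9855 was counted at 0 in all libraries.

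**Figure D1:**
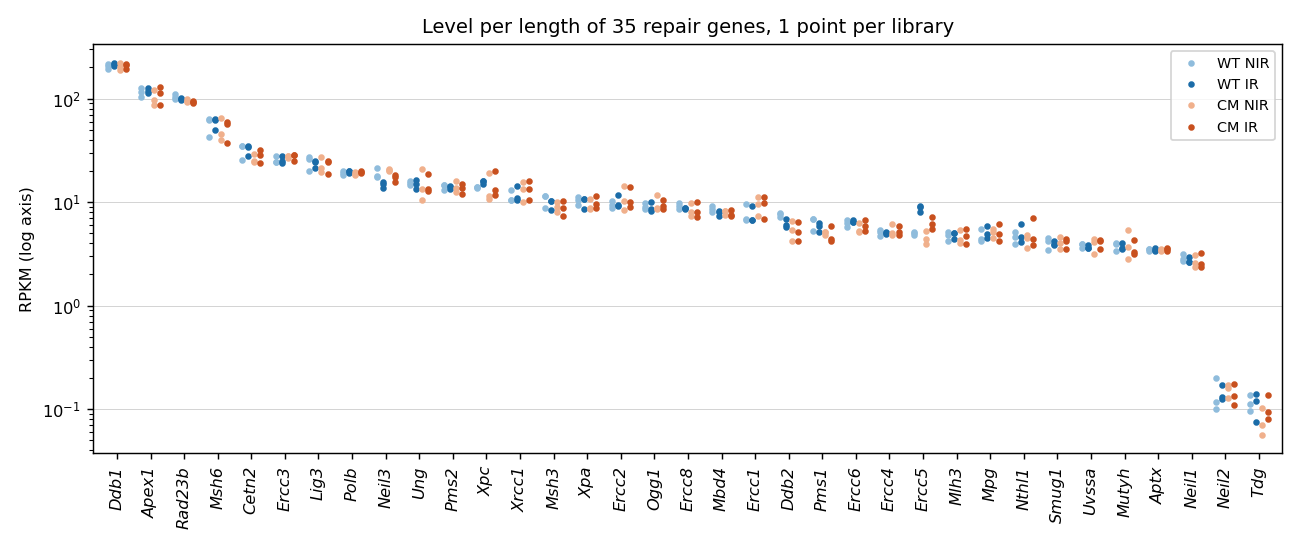
Deposited RPKM on a log axis for each of the 35 genes, ordered by their WT NIR mean, with 1 point per library and 1 color per group. Ddb1, Apex1 and Rad23b lie highest, and Neil2 and Tdg lie below 1 RPKM, apart from the other genes. In Ercc5 alone of the 35 the WT IR points stand clear above those of the other 3 groups.

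Few of these genes were called after irradiation, as few of all genes tested were. In WT cells 0 of 35 passed the threshold, where 17 of all genes tested did (0.116%, all higher), and 2 of 35 had an unadjusted p under 0.05 against 591 of all genes. DESeq2 and limma-voom each called 1 of 35 in WT cells, Ercc5. Both also called more of all genes in WT than edgeR did, as counted in the last section. In CM cells 0 of 35 passed, against 1 of all genes (0.00685%), 2 of 35 had an unadjusted p under 0.05 against 237, and DESeq2 and limma-voom called 0. Averaged over both genotypes, so that all 6 animals inform the test, 1 of 35 passed, Ercc5, which rose, against 45 of all genes (0.308%). With the animal as replicate block, 2 of 35 passed in the averaged contrast, Ercc5 higher and Neil3 lower, against 302 of all genes (2.07%). Within WT the block called 0 of 35, against 163 of all genes (1.12%), and within CM 0 of 35 against 0 of all genes (0%). Counts of 1 and 2 genes are too small to set the 35 apart from this background. In WT, 2 of 35 were higher after irradiation with no overlap between the groups, Ercc5 and Xpc, where 7.47% of all genes were, and 2 were lower, Neil3 and Ddb2, where 6.63% were. In CM, 1 was higher without overlap, Ercc5 (1.57% of all genes), and 1 lower, Neil3 (0.986%). The median log2 fold change of the 35 was -0.02 in WT and 0.00 in CM, beside -0.01 and 0.00 over all genes tested. In WT 16 were positive and 19 negative, and in CM 18 and 17.

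**Figure D2:**
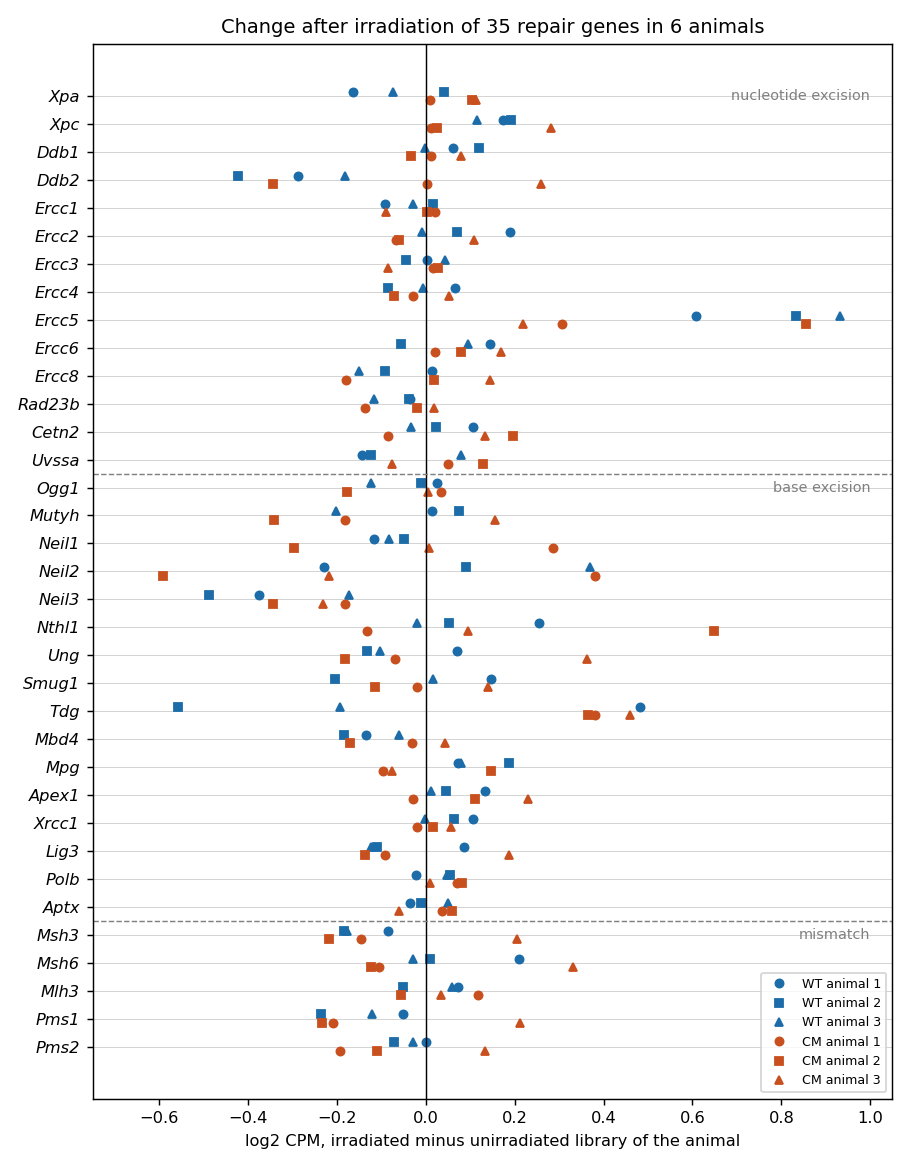
Log2 CPM of the irradiated library minus that of the unirradiated library of the same animal, for each of the 35 genes grouped by pathway, with blue for WT and orange for CM animals and 1 symbol per animal. Ercc5 lies between 0.22 and 0.93 in all 6 animals and Neil3 between -0.49 and -0.17, while most other genes have points on both sides of 0.

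Among the genes of nucleotide excision repair, Ercc5 (XPG), the endonuclease that cuts 3' of the lesion, was the gene that rose. It lies at chr1:44147744-44181260 on the plus strand of mm10, and no other gene listed with the counts overlaps its span on either strand. In WT NIR it was at 21.1, 20.5 and 19.6 CPM in animals 1, 2 and 3, and in WT IR at 32.2, 36.6 and 37.4 CPM. In CM NIR it was at 18, 16.2 and 21.6 CPM, and in CM IR at 22.3, 29.3 and 25.2 CPM. Every irradiated library was above every unirradiated library of its genotype, and all CM IR libraries were below all WT IR libraries. The means were 20.4 ± 0.781 (SD, n = 3) CPM in WT NIR, 35.4 ± 2.77 in WT IR, 18.6 ± 2.76 in CM NIR and 25.6 ± 3.53 in CM IR. Averaged over both genotypes it rose by a log2 fold change of 0.63 ± 0.10 (SE), with an adjusted p of 0.0279 by edgeR's quasi-likelihood test, and it was higher in 6 of 6 animals. With the replicate block the value was 0.63 ± 0.09, adjusted p 0.0308.

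Within a genotype the Ercc5 change did not pass edgeR's test. In WT the log2 fold change was 0.79 ± 0.14, adjusted p 0.0721, and 0.0506 with the replicate block. In CM it was 0.46 ± 0.14, adjusted p 1, and 0.593 with the block. The averaged call depended on single libraries: leaving out any of the 6 WT libraries, CM NIR 1 or CM IR 3 lifted the adjusted p over 0.05, up to 0.129, with a log2 fold change of 0.57 to 0.69 over all 12 omissions. Without both libraries of CM animal 3 it was 0.70, adjusted p 0.0731, and in the fit with the block without that animal 0.69, adjusted p 0.0199.

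The recognition genes of this pathway did not pass the test. Ddb2, the lesion-binding partner of DDB1, was at 14.2, 15 and 15.1 CPM in WT NIR and 11.6, 11.2 and 13.3 CPM in WT IR. In CM it was at 8.21, 12.6 and 10.6 CPM without and 8.23, 9.95 and 12.7 CPM with irradiation. WT IR lay wholly below WT NIR, whereas the CM groups overlapped. The log2 fold change in WT was -0.29 ± 0.19, adjusted p 1 by edgeR's quasi-likelihood test, and in CM -0.03 ± 0.19, adjusted p 1. Ddb2 (chr2:91211581-91237066, minus strand) shares 652 exonic bases with Acp2 on the opposite strand. The strand setting of the counting was not given in the sources used here, so reads of these genes may not be separated. The same limit holds for Ercc1, Ercc2, Ogg1, Tdg, Mpg, Lig3, Msh3 and Msh6, which also overlap a gene on the opposite strand.

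Xpc, the damage sensor, was at 52.3, 51.4 and 50.3 CPM in WT NIR and 58.9, 58.7 and 54.4 CPM in WT IR. In CM it was at 42.3, 71.0 and 39.8 CPM before and 42.7, 72.3 and 48.3 CPM after irradiation. The WT groups did not overlap, while in CM animal 2 stood above the others in both libraries. Xpc was higher after irradiation in 6 of 6 animals, by 0.01 to 0.28 on the log2 scale. Its averaged log2 fold change was 0.13 ± 0.16, adjusted p 1, and 0.13 ± 0.05, adjusted p 0.203, with the replicate block. Of the 35 genes, 2 were higher in all 6 animals, Ercc5 and Xpc, where 5.93% of all genes were, and 1 was lower in all 6, Neil3, where 6.58% were.

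The other 11 genes of the pathway had averaged log2 fold changes between -0.06 (Rad23b) and 0.08 (Ercc6), none passing the test. The incision partners Ercc1 and Ercc4 were at -0.03 and -0.02, and the TFIIH helicase genes Ercc2 and Ercc3 at 0.04 and -0.01. Xpa was at 0.01, and the transcription-coupled genes Ercc8 and Uvssa at -0.04 and -0.02. Ercc5 RNA, for the nuclease that cuts 3' of the lesion, was higher after irradiation, by a call that depended on single libraries. RNA of Ercc1 and Ercc4, for the nuclease that cuts 5' of it, stayed within 0.03 of 0 in averaged log2 fold change. Protein was not measured.

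**Figure D3:**
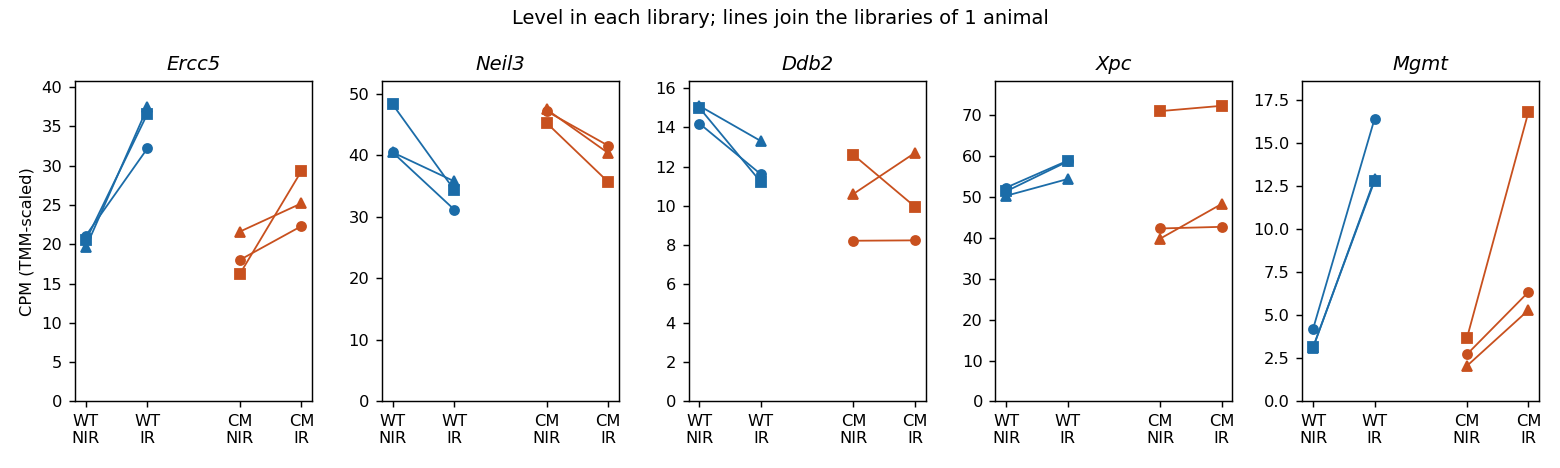
TMM-scaled CPM of Ercc5, Neil3, Ddb2, Xpc and Mgmt in each library on axes that start at 0, with a line joining the unirradiated and irradiated libraries of 1 animal (blue, WT; orange, CM; circles, squares and triangles for animals 1, 2 and 3). Ercc5 and Mgmt lines go up and Neil3 lines go down in all 6 animals, while the Ddb2 lines of CM animals point in different directions.

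In base excision repair the largest averaged change was in Neil3, a glycosylase for oxidized bases that is known for its expression in proliferating cells and for unhooking interstrand crosslinks. It lies at chr8:53586867-53639065 on the minus strand, and no other gene listed with the counts overlaps its span. It was at 40.5, 48.3 and 40.5 CPM in WT NIR and 31.2, 34.4 and 35.8 CPM in WT IR. In CM it was at 47.2, 45.3 and 47.5 CPM without and 41.6, 35.7 and 40.4 CPM with irradiation. In both genotypes all irradiated libraries were below all unirradiated ones. The averaged log2 fold change was -0.30 ± 0.07, adjusted p 0.228 by edgeR's quasi-likelihood test, and -0.30 ± 0.05, adjusted p 0.0421, with the replicate block. It was lower in 6 of 6 animals. By genotype it was -0.35 ± 0.10 in WT, adjusted p 0.514 (0.0905 with the block), and -0.25 ± 0.10 in CM, adjusted p 1 (0.593 with the block). With the block and without CM animal 3 the averaged adjusted p was 0.0439.

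The other glycosylase genes did not pass the test. Mbd4, which acts on mismatched thymine and uracil, had an averaged log2 fold change of -0.09 ± 0.07, adjusted p 1, and was lower in 5 of 6 animals, at 29.2, 33.1 and 30.9 CPM in WT NIR, 26.6, 29.2 and 29.7 CPM in WT IR, 27.5, 29.5 and 30 CPM in CM NIR and 26.9, 26.2 and 30.9 CPM in CM IR. These groups overlapped. Ogg1 and Mutyh, which act on and opposite 8-oxoguanine, were at -0.05 and -0.10, Neil1 at -0.04, the uracil glycosylases Ung and Smug1 at -0.03 and -0.01, and Mpg, for alkylated bases, at 0.06. Nthl1, for oxidized pyrimidines, was at 0.18, with its within-animal changes running from -0.13 to 0.65. Tdg, at 0.346, 0.402 and 0.487 CPM in WT NIR, 0.493, 0.265 and 0.422 in WT IR, 0.253, 0.368 and 0.202 in CM NIR and 0.336, 0.481 and 0.287 in CM IR, had overlapping groups. Its log2 fold change was -0.07 in WT and 0.42 ± 0.34 in CM, adjusted p 1 in both, on counts too low to separate these values.

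Among the downstream genes of the pathway were the 2 of the 35 with the narrowest range over libraries. Aptx, which removes adenylate from broken ends, was at 19.6 to 21.0 CPM over all 12 libraries, a highest level 1.07 times the lowest. Polb, the gap-filling polymerase, was at 22.8 to 25 CPM (1.1 times). Their averaged log2 fold changes were 0.01 and 0.04. Apex1 was at 0.09, Xrcc1 at 0.04 and Lig3 at -0.04, none passing the test.

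None of the 5 mismatch repair genes passed the test in any contrast. Msh6 was at 184, 266 and 276 CPM in WT NIR and 212, 268 and 271 CPM in WT IR, and at 172, 278 and 198 CPM in CM NIR and 160, 255 and 248 CPM in CM IR. It was lower in both libraries of WT animal 1 and CM animal 1 and in the NIR library of CM animal 3 than in the other 7, whichever the treatment. Its averaged log2 fold change was 0.04 ± 0.17. Msh3, Pms1 and Pms2 had values of -0.10, -0.10 and -0.05, each higher after irradiation in CM animal 3 and at or below its unirradiated value in the other 5 animals, and Mlh3 was at 0.03. The mean change of the 5 genes by animal was 0.03, -0.11 and -0.06 in WT animals 1, 2 and 3 and -0.11, -0.15 and 0.18 in CM animals 1, 2 and 3, so CM animal 3 again stood apart. Without it the averaged log2 fold changes were -0.16 for Msh3, -0.18 for Pms1, -0.09 for Pms2, -0.03 for Msh6 and 0.04 for Mlh3, again none passing.

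CM cells were then set against WT cells. In NIR cells 0 of 35 passed edgeR's test, where 237 of all genes did (1.62%), and 1 of 35 against 2199 of all genes had an unadjusted p under 0.05. DESeq2 and limma-voom also called 0. In IR cells 0 of 35 passed against 97 of all genes (0.664%), and 1 of 35 against 1726 had an unadjusted p under 0.05. limma-voom called 0 and DESeq2 called 1, Ercc5. Over all genes DESeq2 called several times as many as edgeR in both NIR and IR, as counted in the last section. The edgeR shares are thus no background for the DESeq2 call. The medians of the 35 were -0.04 in NIR and -0.03 in IR, beside 0.02 and 0.02 over all genes tested.

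Ercc5 was 0.13 ± 0.14 lower in CM NIR than in WT NIR on the log2 scale, with overlapping libraries, and 0.47 ± 0.14 lower in CM IR than in WT IR, where the libraries did not overlap and the adjusted p was 0.163 by edgeR and 0.0331 by DESeq2. Ddb2 differed by -0.50 ± 0.19 in NIR, adjusted p 0.246, with all CM libraries below all WT libraries, and by -0.23 ± 0.19 in IR. Pms1 was at 16.5, 21.3 and 21.1 CPM in WT NIR and 15.2, 16 and 15.9 CPM in CM NIR, and at 15.9, 18.1 and 19.4 CPM in WT IR and 13.1, 13.6 and 18.5 CPM in CM IR. Its NIR difference was -0.32 ± 0.16, adjusted p 0.377. The NIR groups of Pms1 did not overlap and the IR groups did. In NIR cells 2 of 35 were lower in CM without overlap, Ddb2 and Pms1, where 7.84% of all genes were, and 0 of 35 were higher, where 8.14% were. In IR cells 2 of 35 were lower without overlap, Ercc5 and Rad23b, where 8.36% of all genes were, and 0 of 35 were higher, where 9.23% were. Neil3 was 0.21 ± 0.10 higher in CM IR, adjusted p 0.451, with overlapping groups. The 5 mismatch repair genes all had negative differences, with medians of -0.17 in NIR and -0.12 in IR, and none passed. Without CM animal 3, 4 of 5 were negative in NIR (median -0.18) and 5 of 5 in IR (-0.25), Ddb2 differed by -0.50 in NIR (adjusted p 0.358) and -0.39 in IR, Pms1 by -0.33 in NIR (adjusted p 0.433), and Ercc5 by -0.44 in IR (adjusted p 0.198 by edgeR).

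Whether the response to irradiation differed between genotypes was tested as an interaction. None of the 35 genes passed and none of all genes did (0%), by edgeR, DESeq2 or limma-voom, and 0 of 35 against 106 of all genes had an unadjusted p under 0.05. The Ercc5 response was 0.33 ± 0.19 lower in CM on the log2 scale (adjusted p 1). An exact two-sided permutation test of the within-animal changes, 3 animals against 3, gave p = 0.3, where the smallest p it allows is 0.1. For Neil3 the difference was 0.10 ± 0.14, exact permutation p = 0.5, and for Ddb2 0.27 ± 0.27, exact permutation p = 0.3. When single libraries were left out, the difference ranged from -0.45 to -0.21 for Ercc5 and from 0.09 to 0.43 for Ddb2. Without both libraries of CM animal 3 it was -0.19 for Ercc5, 0.11 for Ddb2 and 0.10 for Neil3, adjusted p 1 for each. Standard errors of this size leave room for responses that differ between genotypes.

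The Ercc5 and Neil3 changes were set beside wider programs in the same animals. The mean log2 change of 16 p53 target genes was 1.42, 1.79 and 1.74 in WT animals 1, 2 and 3 and 0.64, 1.57 and 0.77 in CM animals 1, 2 and 3. The Ercc5 changes, in the same order, were 0.61, 0.83 and 0.93 in WT and 0.31, 0.86 and 0.22 in CM. CM animals 1 and 3 were lowest in both. These are also the animals with the highest summed mast cell and basophil markers. Their macrophage sums were not apart from WT animal 1 (882 CPM in CM IR 3, 1030 CPM in WT NIR 1). The part of these cells was not tested. Between 10 and 13 of the 16 p53 targets had a larger change than Ercc5 in each animal. Of the list, 5 were called higher in WT, 1 in CM and 7 in the averaged contrast, and none lower, beside 17, 1 and 45 of all 14599 genes called. With the replicate block 12, 0 and 13 of the 16 were called higher, beside 163, 0 and 302 of all genes. Without both libraries of CM animal 3 the counts were 1, 0 and 4 of 16, beside 1, 0 and 9 of all genes. With the block as well they were 14, 0 and 14 of 16, beside 356, 0 and 330 of all 14806 genes called higher. Trp53inp1, a p53 target, had a log2 fold change of 2.10 ± 0.12 in WT and 1.39 ± 0.12 in CM. Mdm2, the p53 ubiquitin ligase, was at 0.73 ± 0.09 in WT and 0.33 ± 0.09 in CM. Cdkn1a, the cell cycle inhibitor p21, was at 1.15 ± 0.27 and 0.59 ± 0.27.

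The mean change of 19 mitosis genes was -0.10, -0.10 and -0.11 in WT animals and -0.13, -0.09 and -0.16 in CM animals. Neil3, at -0.38, -0.49 and -0.17 in WT and -0.18, -0.34 and -0.23 in CM, had a more negative change than 14 to 19 of these 19 genes in each animal. Mki67, the proliferation marker, had an averaged log2 fold change of -0.21 ± 0.11, adjusted p 1 by edgeR and 0.0434 with the replicate block. Of the 19, 0 were called in the averaged contrast, with 4 at an unadjusted p under 0.05, where 45 of all genes were called and 758 had such a p. With the block 4 of 19 were called lower, where 95 of all 14599 genes were. Without CM animal 3 the block also called 4 lower, where 160 of all 14806 genes were. Erythroid markers also had negative fold changes after irradiation, as given above, and their part in the Neil3 and mitosis values was not tested.

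**Figure D4:**
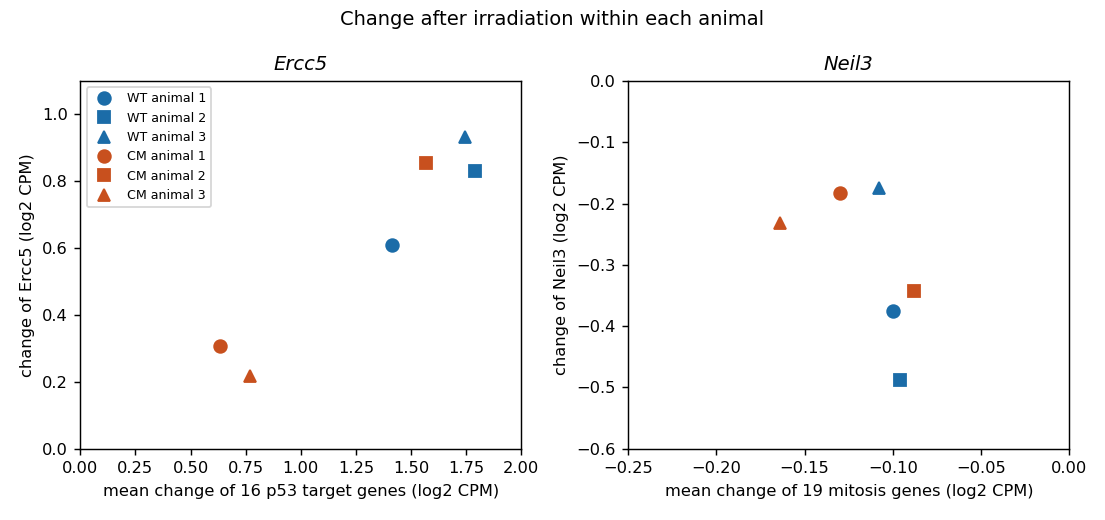
Within-animal changes on the log2 CPM scale, with Ercc5 against the mean of 16 p53 target genes on the left and Neil3 against the mean of 19 mitosis genes on the right, 1 point per animal (blue, WT; orange, CM). CM animals 1 and 3 sit at the lower left of the Ercc5 panel at 0.31 and 0.22, apart from the other 4 animals at 0.61 to 0.93, and the Neil3 points fall from -0.17 to -0.49 over a narrow range of mitosis means.

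Other genes of these pathways were counted from lists of helper factors: 18 of nucleotide excision repair (TFIIH, CUL4 and RPA subunits and others), 13 listed beside base excision repair and 14 of mismatch repair and repair synthesis. In the averaged contrast 0 of 18, 1 of 13 and 0 of 14 passed edgeR's test, where 45 of all genes did (0.308%). Unadjusted p values under 0.05 were found for 0, 1 and 1 of them, and for 758 of all genes (5.19%). With the replicate block the same 3 counts of calls were 0, 1 and 0, and 2, 4 and 2 had an unadjusted p under 0.05, where 2487 of all genes did. The gene that passed was Mgmt, which reverses alkylation at guanine directly and is no step of base excision. It was at 4.2, 3.14 and 3.11 CPM in WT NIR and 16.4, 12.8 and 12.9 CPM in WT IR, and at 2.73, 3.67 and 2.06 CPM in CM NIR and 6.35, 16.8 and 5.30 CPM in CM IR. All irradiated libraries lay above all unirradiated ones, with CM animals 1 and 3 lowest among the irradiated. It rose by 1.88 ± 0.29, adjusted p 0.028, and by 1.81 ± 0.13, adjusted p 0.00556, with the replicate block. Like that of Ercc5, this call depended on single libraries: it held in 4 of 12 omissions of 1 library (without CM NIR 2, CM IR 1, CM IR 2 or CM IR 3), with a log2 fold change of 1.53 to 2.03 and an adjusted p up to 0.135 over the 12. Without both libraries of CM animal 3 Mgmt was at 1.94, adjusted p 0.0731, and with the block as well at 1.88, adjusted p 0.00667. In WT the block also took it past the threshold (2.02 ± 0.19, adjusted p 0.0160, against 0.156 without it), and in CM it did not (adjusted p 0.197). Pold3, a subunit of replicative polymerase delta, had an averaged value of -0.13 ± 0.06, adjusted p 0.847, and Rfc4, a clamp loader subunit that overlaps Eif4a2 on the opposite strand, -0.16 ± 0.09, adjusted p 1.

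The spread between animals was set beside the response. The log2 level of each gene was averaged over the libraries of an animal, and its SD was taken over the 6 animals of both genotypes. This SD had a median of 0.18 over the 35 genes, whereas the median size of the mean response was 0.0422. Over all genes tested these medians were 0.247 and 0.0823. The SD was the larger in 31 of 35 genes and in 12945 of the 14599 genes tested, so the 35 did not stand out in this. Part of this spread ran with the library numbers in the labels, which fall into a series A (WT animal 1, CM animals 1 and 2) and a series B (WT animals 2 and 3, CM animal 3). What the series stand for is not given. Without overlap, 4 of 35 were higher in series A (5.64% of all genes) and 3 of 35 in series B (4.06%). Ercc1 was at 13.8 to 16.8 CPM in series A and 10 to 11 CPM in B, Ercc2 at 36.0 to 52.2 and 30.5 to 34.1 CPM, Ercc3 at 75.4 to 77.5 and 64.5 to 73.1 CPM, and Xrcc1 at 54.0 to 65.3 and 41.5 to 44.8 CPM. In the other direction, Cetn2 was at 28.6 to 33.9 CPM in A and 35.3 to 42.0 CPM in B, and Xpa and Mlh3 were also higher in B. Since A holds 2 CM animals and 1 WT animal, genotype differences in these 7 genes ran partly with the series. Among them Cetn2 had a difference of -0.27 ± 0.16 between CM and WT in NIR, adjusted p 0.461. Ercc5, Neil3 and Ddb2 overlapped between the series when NIR and IR libraries were pooled. Changes after irradiation add to these ranges, so this overlap does not separate their genotype differences from the series. Each animal's own pair lies within 1 series.

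**Figure D5:**
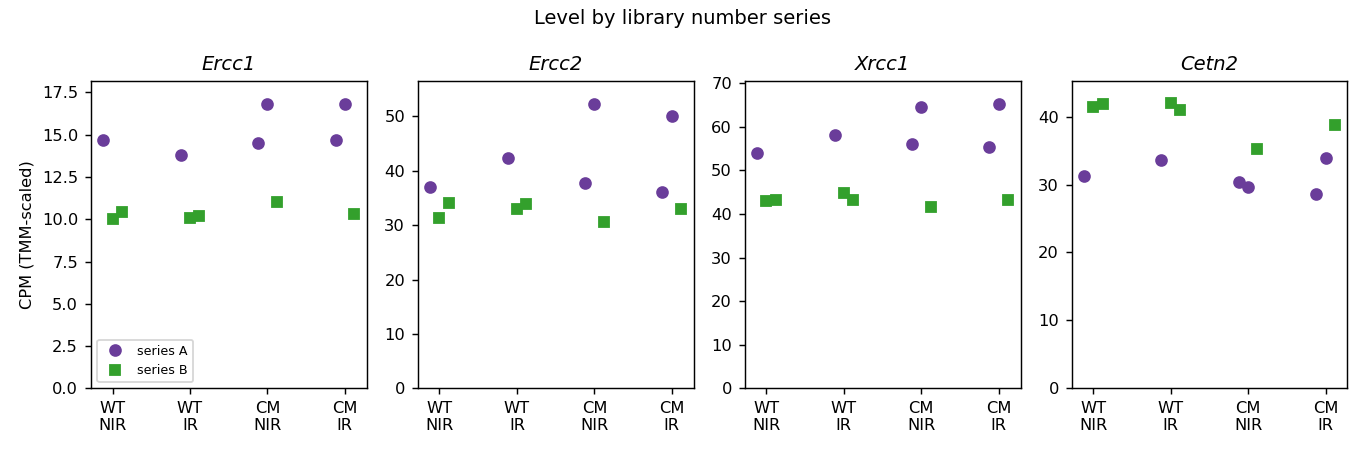
TMM-scaled CPM of Ercc1, Ercc2, Xrcc1 and Cetn2 by group, with axes from 0, 1 point per library, purple circles for library number series A and green squares for series B. In each panel the 6 libraries of one series lie above all 6 of the other, for example 13.8 to 16.8 against 10 to 11 CPM in Ercc1.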

How the data were processed

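Gene counts and RPKM of 12 libraries were analysed. Per the labels' protocols, total RNA was made into stranded libraries once ribosomal RNA had been removed. According to the submitters' processing notes, bcl2fastq 2.18.0.12, TopHat2 and HTSeq 0.6.1p1 were used with build mm10. Strand setting, annotation release and read filters were not given in the sources used here. The deposited counts are whole numbers per gene and were used for every test. The deposited RPKM values, counts scaled by the authors to length and library size, were used to compare levels between genes and in alternatives. Of the 25078 genes listed, 4353 were at 0 counts throughout.

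The filter filterByExpr (minimum count 10, minimum total 15) kept 14599 genes. edgeR 4.0.16 in R 4.3.3 fitted all 12 libraries with 1 mean per group, TMM normalization and the quasi-likelihood test, and 6 contrasts were adjusted by Benjamini-Hochberg over all genes. The procedure was tested on simulated data. Log2 CPM used a prior count of 2, and log2 RPKM pseudocounts of 0.1 and 1. The labels give the NIR and IR libraries of a mouse 1 animal number, so they are paired by animal. Deviations from group means correlated within animals at 0.67, 0.50 and 0.41 in WT and 0.79, 0.84 and 0.13 in CM. Each NIR library was compared only with the IR libraries of its genotype. Among these, the NIR library of CM animal 3 was closest (0.69) to that of irradiated cells from CM animal 1. The main fit treated the 12 libraries as independent although each animal gave 2 (consensus correlation within animals 0.723 by limma). Its p-values thus rest on the spread between libraries of a group, not on independent animals alone. Those of the replicate block rest on how the within-animal changes vary between animals.

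The members and lists were chosen with earlier results of these data known. Values per library are given for genes past the threshold, for the 3 of smallest p in each contrast and for those changing the same way in all 6 animals. Other pathway genes are named when past the threshold or among the 3 of smallest p after irradiation. The extension of the Neil3 stretch was chosen after its match was seen, and Rad23b, Msh6, Aptx, Polb and the genes described by library series were singled out after their values were seen. Alternatives were DESeq2 1.42.0, limma 3.58.1, other size factors, no filter, a replicate block, a series term and omitted libraries. RefSeq promoters came from GRCm38.p6. Gene overlaps came from the spans listed with the counts, shared exonic bases from GENCODE and transcript identities from blastn 2.17.0.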

Additional observations from a re-analysis of the deposited data

How the results depend on the processing

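With the animal as replicate block the number of the 35 genes called in the averaged contrast went from 1 to 2, Neil3 being added, and it was 2 also with DESeq2, with limma-voom and a correlated block, and with the block without CM animal 3 (an alternative chosen after seeing the data). It was 0 without both libraries of CM animal 3 and 0 to 1 when single libraries were left out. In WT, where the main count was 0, DESeq2 and limma-voom called 1, limma-voom with the correlated block 2, the block without CM animal 3 called 1, and single omissions gave 0 to 1, with 1 when either library of CM animal 2 was left out. In CM against WT after irradiation DESeq2 called 1. The block changed no other call among the 35. Over all genes the count in WT was 17 in the main analysis, 140 by DESeq2, 31 by limma-voom, 163 with the block and 438 with the correlated block, and in the averaged contrast 45, 169, 43, 302 and 693. Without CM animal 3 the main fit called 1 gene in WT and 9 averaged. The block without that animal called 356 higher and 160 lower in WT, and 330 higher and 160 lower averaged. For CM against WT, DESeq2 called 922 genes in NIR and 652 in IR, against 237 and 97, the correlated block 5 and 13, and the series term 180 and 14. The median of the 35 ranged from -0.042 to 0.094 in CM and from -0.043 to 0.102 for the difference of responses when single libraries were left out, the extremes of the latter coming without a library of CM animal 2. Xpc in CM ranged from -0.17 to 0.41 under the same omissions, negative without CM NIR 1 (-0.02), CM NIR 3 (-0.05) or CM IR 2 (-0.17), and its averaged value from -0.003 (without CM IR 2) to 0.284. The cause of these shifts was not tested. Neil2 and Tdg, under 1 CPM, rest on few counts, and the cause of their low counts was not tested.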
